A study of Homo sapiens with 3 samples.

Results

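Small nucleolar RNAs (snoRNAs) and small Cajal body RNAs (scaRNAs) were examined in RNA-seq libraries labelled HepG2, which the source study calls a hepatocellular carcinoma line. The rows were those of the deposited gene tables whose gene name starts with SNORD, SNORA or SCARNA followed by a digit, on the assembled chromosomes, that is on references with no "_" in their name. This gave 568 of 39320 rows, of which 357 were SNORD, 182 SNORA and 29 SCARNA. A further 38 rows with such names lay on other references and were left out. The study examined splice variants of the m6A methyltransferase METTL3 in liver cancer, and its libraries here were 3 replicates of wild-type (WT) HepG2, without any treatment named. The molecule sequenced was polyA RNA, from total RNA extracted with TRIzol. The labels do not say whether the replicates came from separate cultures, so the spread between them may be technical. With 1 condition there was no comparison of groups, and values are given for replicates 1, 2 and 3 or as mean ± SD (n = 3).

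SNORD genes encode box C/D snoRNAs, which guide 2′-O-methylation of ribosomal RNA, and SNORA genes encode box H/ACA snoRNAs, which guide pseudouridylation. ScaRNAs carry boxes of either kind, gather in Cajal bodies and guide the same modifications of spliceosomal RNAs. Most human snoRNAs are cut out of introns of a host gene after splicing and carry no poly(A) tail. In polyA libraries, reads of a trimmed snoRNA and reads of a host transcript that keeps the intron cannot be told apart from the value of a row.

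Levels are in TPM, which divides by the length of a row and by the library total. Mean read depth over a row (coverage) was also deposited. For the snoRNA and scaRNA rows with a coverage of at least 1, TPM per unit of coverage was the same within 0.1% in a library, and 1 TPM stood for a coverage of 6.27, 6.14 and 5.50 in replicates 1, 2 and 3. Read counts are not in these tables, the depth per library is unknown, and errors are those between libraries. The label of the cell line was compared with liver markers, and SERPINA1, APOB, APOA1 and ALB had a listed value of 0 in each library, while AFP had a mean of 0.0162 TPM. These 5 genes are commonly used to mark hepatocyte-derived cells, and their values did not show the labelled cell type.

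The sequences of rows that carry the results below were read from GRCh38 by the deposited coordinates, on the strand of transcription. For SNORD rows, capitals mark TGATG within the first 20 bases and CTGA within the last 20 bases, letters of boxes C and D. SNORD36A (chr9:133350456-133350527, plus strand) was the highest row of all. SNORD47 (chr1:173864369-173864445, minus strand) was the highest in GAS5. SNORD104 (chr17:64146078-64146157, plus strand) exceeded its containing row. SNORD116-1 (chr15:25051476-25051572, plus strand) opens an imprinted cluster. SNORD3A (chr17:19188016-19188232, plus strand) encodes U3 and has only the CTGA match. SNORD86 (chr20:2656097-2656182, plus strand) was near 0 inside the highly expressed NOP56.
SNORD36A: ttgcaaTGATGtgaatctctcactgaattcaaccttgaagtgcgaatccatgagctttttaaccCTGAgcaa
SNORD47: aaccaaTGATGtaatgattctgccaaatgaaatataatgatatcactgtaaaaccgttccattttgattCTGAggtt
SNORD104: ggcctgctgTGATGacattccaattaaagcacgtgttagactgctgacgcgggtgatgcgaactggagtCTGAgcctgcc
SNORD116-1: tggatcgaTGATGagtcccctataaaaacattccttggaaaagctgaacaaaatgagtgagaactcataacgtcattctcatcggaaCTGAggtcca
SNORD3A: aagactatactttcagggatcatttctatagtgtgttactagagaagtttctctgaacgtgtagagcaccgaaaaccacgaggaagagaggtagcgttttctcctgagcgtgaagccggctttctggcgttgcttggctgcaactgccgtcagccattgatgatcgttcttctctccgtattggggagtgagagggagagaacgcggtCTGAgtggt
SNORD86: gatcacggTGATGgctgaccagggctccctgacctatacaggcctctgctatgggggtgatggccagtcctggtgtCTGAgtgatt

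For SNORA and SCARNA rows, capitals mark ANANNA (box H) starting within 20 bases of the middle and ACA within the last 8 bases. SNORA40 (chr11:93735110-93735236, minus strand) and SNORA8 (chr11:93732361-93732499, minus strand) were the 2 highest rows in TAF1D. SNORA40 has the box H match only in this window. SNORA73A (chr1:28507365-28507571, plus strand) encodes U17, and SCARNA12 (chr12:6967337-6967606, minus strand) was the highest scaRNA row. SCARNA12 also holds TGATG within its first 20 bases and CTGA within its last 20 bases, which are left unmarked.
SNORA40: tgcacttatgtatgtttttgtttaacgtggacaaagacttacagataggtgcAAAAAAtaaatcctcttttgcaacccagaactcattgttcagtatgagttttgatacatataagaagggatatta
SNORA8: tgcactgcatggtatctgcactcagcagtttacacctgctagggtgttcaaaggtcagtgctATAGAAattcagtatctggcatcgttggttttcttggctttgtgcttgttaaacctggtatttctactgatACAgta
SNORA73A: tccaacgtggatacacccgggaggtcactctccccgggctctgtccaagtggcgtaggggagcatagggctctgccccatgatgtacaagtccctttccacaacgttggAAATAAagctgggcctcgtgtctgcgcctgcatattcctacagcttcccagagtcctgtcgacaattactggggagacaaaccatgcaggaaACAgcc
SCARNA12: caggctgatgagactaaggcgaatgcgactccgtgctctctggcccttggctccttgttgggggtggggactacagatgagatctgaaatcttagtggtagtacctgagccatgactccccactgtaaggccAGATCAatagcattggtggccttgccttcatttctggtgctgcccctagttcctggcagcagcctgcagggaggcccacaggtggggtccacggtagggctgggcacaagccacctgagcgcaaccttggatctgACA

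The box letters followed the names of the classes. TGATG and CTGA were both found in 274 of 357 SNORD rows (76.8%), in 0 of 182 SNORA rows and in 6 of 29 SCARNA rows. Windows of the same length 500 bases up- or downstream of SNORD rows, on the same strand, held both in 0 of 686 cases. ANANNA and ACA were both found in 152 of 182 SNORA rows (83.5%), 10 of 357 SNORD rows and 19 of 29 SCARNA rows, against 12 of 348 windows beside SNORA rows (3.45%). Only the transcribed strand was searched, the letters and windows were chosen after sequences had been seen, and a match is a description of the letters, not of a working box.

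Of the 568 rows, 344 (60.6%) were above 0 in all 3 libraries, 156 (27.5%) were listed at 0 in all 3, and 68 were above 0 in only some. Of all rows of the tables, 47.2% were above 0 and 40.7% at 0 in every library. At least 1 TPM was reached in every library by 214 rows (37.7%), close to the 33.8% of all rows of the tables that reached it. The snoRNA rows are short, and among the 2600 other rows of at most 300 bases 186 (7.15%) reached this level. These 2600 rows include 1855 microRNA rows, of which 158 (8.52%) reached it. At least 10 TPM in every library was reached by 71 snoRNA and scaRNA rows (12.5%), below the 20.7% of all rows.

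By class, 137 of 357 SNORD rows (38.4%), 70 of 182 SNORA rows (38.5%) and 7 of 29 SCARNA rows (24.1%) were at 1 TPM or more in every library. At 10 TPM or more in every library were 51 SNORD rows (14.3%) and 19 SNORA rows (10.4%), below the 20.7% of all rows. Listed at 0 in all were 115 SNORD rows (32.2%) and 38 SNORA rows (20.9%), below the 40.7% of all rows. At 1 TPM, both classes lay slightly above the 33.8% of all rows. Among rows above 0 in all libraries, the median log2(TPM + 1) was 2.16 ± 0.06 for SNORD, 1.48 ± 0.04 for SNORA and 0.81 ± 0.13 for SCARNA. The SNORA median lay below the SNORD median by 0.63, 0.61 and 0.79 in replicates 1, 2 and 3 (difference -0.68 ± 0.10). This order depends on leaving out rows at 0, because over all rows of each class the SNORA median was higher, by 0.31 ± 0.06. Of the SNORD rows with both TGATG and CTGA, 117 of 274 (42.7%) had at least 1 TPM in every library, against 20 of 83 (24.1%) of the others. Outside the clusters in SNHG14 and MEG8 these shares were 109 of 173 (63.0%) and 20 of 64 (31.2%). SNORA rows differed less, with 60 of 152 (39.5%) of those with both ANANNA and ACA and 10 of 30 (33.3%) of the others.

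**Figure D1:**
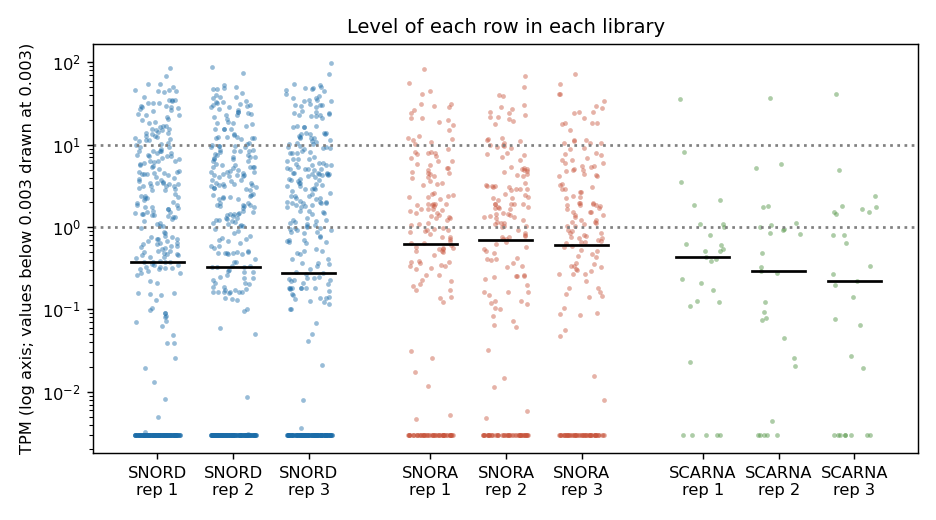
Each point is 1 row in 1 library, with TPM on a log axis and values below 0.003, those at 0 included, drawn at 0.003; bars are medians over all rows of the class and dotted lines mark 1 and 10 TPM. The classes overlap widely, the medians lie below 1 TPM in each library, and the SNORD rows reach the highest levels and also hold the most rows at the lower edge.

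The summed level of all 568 rows was 2733, 2673 and 2780 TPM, or 0.273% ± 0.00536 of all TPM. SNORD rows made up 69.6% ± 0.986 of this sum, SNORA rows 28.2% ± 0.994 and SCARNA rows 2.23% ± 0.0312. The sum was spread over many rows, since the 10 highest rows of each library held 21.6% ± 0.229 of it and the 50 highest 63.7% ± 0.563.

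SNORD36A, a box C/D snoRNA inside the ribosomal protein gene RPL7A, was the highest row, with 86.3, 88.5 and 99.5 TPM. It did not overlap with the next rows, SNORA40 inside TAF1D (84.1, 68.7 and 71.8 TPM) and SNORD47 inside GAS5 (69.2, 74.6 and 73.0 TPM), which overlapped with each other. The remaining 8 of the 10 highest SNORD rows, other than these, had means from 43.7 to 52.1 TPM. They were SNORD80 and SNORD79 in GAS5, SNORD22, SNORD31 and SNORD29 in SNHG1, SNORD60 in SNHG19, SNORD16 in RPL4 and SNORD104 in SNHG25. All but SNORD16 lay in genes known mainly as hosts of snoRNAs. SNORD104 varied most of these, with 29.8, 47.6 and 53.6 TPM, and SNORD80 had 55.2, 52.5 and 48.6 TPM, so their order is not fixed by these replicates.

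After SNORA40, the highest box H/ACA rows were SNORA10 and SNORA64, both inside RPS2, a protein of the small ribosomal subunit. SNORA10 had 56.5, 50.1 and 55.4 TPM and SNORA64 had 41.7, 40.7 and 41.6 TPM, without overlap between them. SNORA8 in TAF1D overlapped with SNORA64, at 44.9, 39.1 and 40.8 TPM. The next were SNORA70 in RPL10 (31.4 ± 2.88), SNORA18 in TAF1D (30.2 ± 0.578), SNORA63 in EIF4A2 (27.2 ± 2.43), SNORA67 in EIF4A1 (27.0 ± 2.06), SNORA104 (24.1 ± 2.51) and SNORA73A in SNHG3 (22.9 ± 2.70 TPM). Their hosts include translation factors and ribosomal proteins, and SNORA104 was the only row of these 10 inside no row of its strand.

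The scaRNA rows were low except for SCARNA12, inside the prohibitin gene PHB2, which had 35.7, 37.2 and 40.9 TPM. SCARNA22, inside the histone methyltransferase gene NSD2, followed with 8.10, 5.89 and 4.87 TPM, without overlap with SCARNA12. SCARNA9 in CEP295 had 3.50, 5.25 and 2.39 TPM, SCARNA17 in SNHG22 had 1.84, 1.75 and 1.77 TPM, and SCARNA10 in the condensin gene NCAPD2 had 1.09, 1.83 and 1.67 TPM. SCARNA10 and SCARNA17 overlapped, as did SCARNA9 and SCARNA22. SCARNA2, which has no containing row and is known as a gene with its own promoter, had 2.14, 1.00 and 1.43 TPM. SCARNA5 and SCARNA6, both inside the autophagy gene ATG16L1, had means of 0.212 ± 0.240 and 0.312 ± 0.211 TPM and were below 1 TPM in every library.

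Among snoRNAs that act in processing of the ribosomal RNA precursor rather than only as guides, levels differed widely. U17, a box H/ACA snoRNA with copies SNORA73A and SNORA73B in SNHG3, had 19.8, 24.1 and 24.9 TPM in the former and 12.1, 10.04 and 14.95 TPM in the latter, without overlap. The SNORD14 copies, encoding U14, were above 1 TPM in every library in 5 of 5 rows. Those in the chaperone gene HSPA8 ranged from 4.54 ± 0.265 for SNORD14E to 13.4 ± 1.96 for SNORD14C, and those in RPS13 were 4.16 ± 0.784 for SNORD14A and 6.44 ± 1.84 TPM for SNORD14B. U3, the abundant snoRNA of early processing, is transcribed from its own promoters, and SNORD3A had 1.51, 1.87 and 1.09 TPM. Of 13 rows named SNORD3, 6 were above 0 in every library, and SNORD3A was the only one at 1 TPM or more in every library. These copies are near-identical, so the split of reads between them is uncertain. U8 (SNORD118), inside an exon of TMEM107, had 0.00498, 0.00265 and 0.00206 TPM. SNORD13, needed for acetylation of the small subunit RNA, was listed at 0 in replicates 1 and 2 and had 0.128 TPM in replicate 3. The single rows SNORD3A, SNORD118 and SNORD13 were thus at or below 2 TPM, while the U14 and U17 rows all lay above. Summed over the 13 rows named SNORD3, however, U3 had 3.67, 4.81 and 4.28 TPM, close to SNORD14A and SNORD14E. For U3 the contrast therefore holds for single rows only. The rows of this contrast were few and chosen for their role. SNORD118 shares its bases with TMEM107, and how reads were assigned between overlapping rows is not given in the sources used here.

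Of the 568 rows, 513 lay inside a longer row of the same strand, and the shortest such row was taken as the containing row. There were 264 containing rows, 193 of which held 1 member, and 24 members lay inside more than 1 row. At least 1 TPM in every library was reached by 56 of 60 members inside ribosomal protein genes and by 68 of 191 inside SNHG-type noncoding and related host genes. The latter count included the members in the imprinted hosts SNHG14 and MEG8, and without these it was 60 of 71. It was 83 of 262 inside other genes and 7 of 55 outside any row. Members of 1 host share its transcripts and are not independent.

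The 5 rows with the most members were SNHG14 with 79, MEG8 with 41, GAS5 with 11, and SNHG1 and TAF1D with 8 each. SNHG14, expressed from the paternal chromosome 15 beside SNRPN, holds the SNORD115 and SNORD116 copies, and MEG8, expressed from the maternal chromosome 14, holds SNORD113 and SNORD114. SNHG14 had 8.71, 8.50 and 8.29 TPM, and 22 of its 79 members were above 0 in every library. In the SNORD116 copies, 21 of 30 were above 0 in every library and 7 reached 1 TPM in each. The highest was SNORD116-22 with 5.63, 4.52 and 4.60 TPM, followed by SNORD116-21 with 2.39, 1.94 and 2.92 TPM, without overlap. SNORD116-1, whose sequence is given above, had 1.12, 1.81 and 1.75 TPM. In the SNORD115 copies, further downstream in the same row, 46 of 48 were listed at 0 in every library, and none was above 0 in all 3. Copies in a cluster are similar in sequence, so reads could be split between them.

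MEG8 had 0, 0.00267 and 0.00275 TPM, and its members were at or near 0. All 9 SNORD113 rows and 30 of 31 SNORD114 rows were listed at 0 in every library. The remaining row, SNORD114-30, had 0.103 TPM in replicate 3 and 0 in the other libraries.

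In GAS5, a noncoding gene that hosts box C/D snoRNAs in its introns, all 11 members had at least 1 TPM in every library and 8 had at least 10. SNORD47 was highest (72.3 ± 2.77) and SNORD77 lowest (8.37 ± 1.06 TPM), a difference of 8.64-fold between members of 1 transcribed unit whose own row was at 521 ± 20.1 TPM. SNORD44 was intermediate, at 32.1, 29.9 and 30.4 TPM. Levels did not follow position along the gene, since SNORD76 near the start had 36.2 ± 1.497 TPM between SNORD75 at 8.96 ± 1.22 and SNORD77. SNORD77 overlapped in level with SNORA103 (9.44 ± 0.631), the next member downstream, and with SNORD75, but not with SNORD76, the next upstream.

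In SNHG1, 7 of 8 members had at least 10 TPM in every library, from 22.6 ± 4.88 for SNORD30 to 50.3 ± 4.44 for SNORD22, the most downstream. The exception was SNORD25, the most upstream, with 0.323, 0.484 and 0.153 TPM inside a row of 168 ± 7.48 TPM, so that SNORD22 was 157-fold higher. In TAF1D, which encodes a subunit of the RNA polymerase I factor SL1, all 8 members had at least 1 TPM and 5 had at least 10. They ranged from 7.78 ± 1.84 for SNORD6 to 74.9 ± 8.17 for SNORA40. The summed level of the members was 214 ± 11.3 TPM in TAF1D and 271 ± 14.4 TPM in SNHG1, above that of the row that holds them (124 ± 1.05 and 168 ± 7.48), and it was 344 ± 4.68 TPM in GAS5, below that row.

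**Figure D2:**
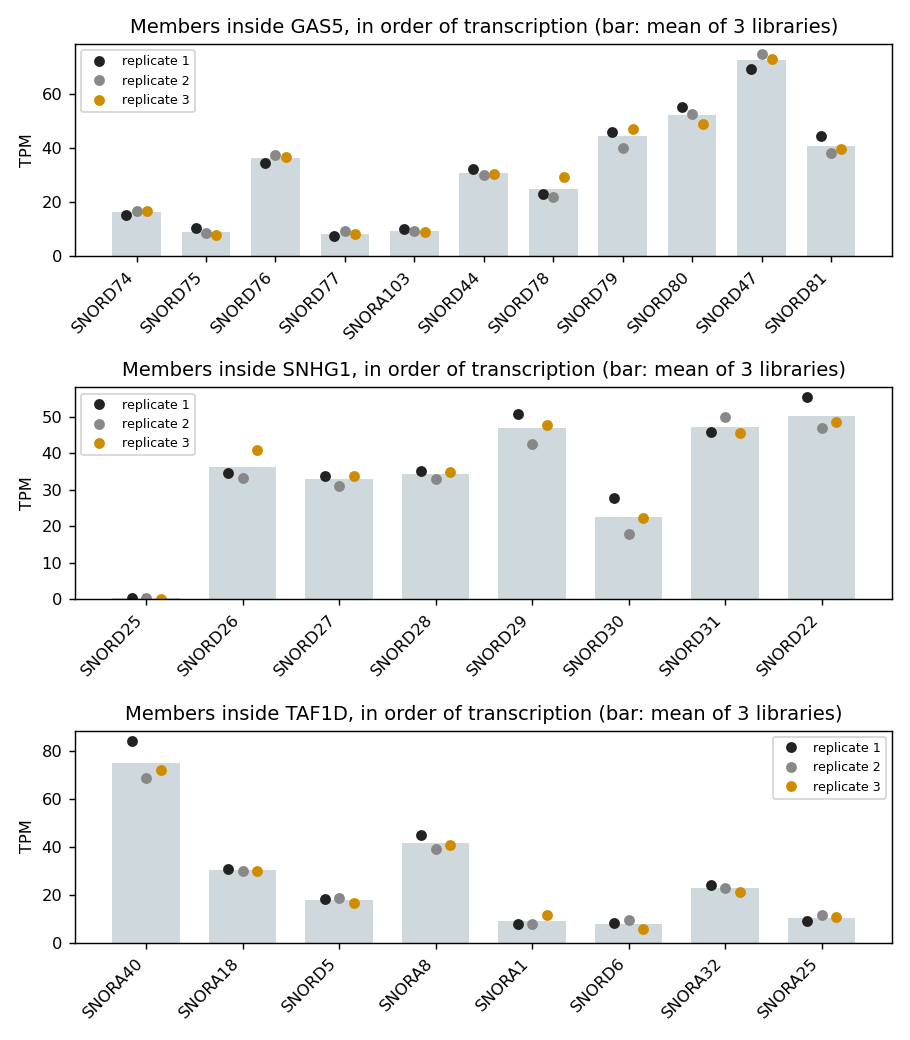
TPM of each member inside GAS5, SNHG1 and TAF1D, from the start to the end of transcription; bars are means of 3 libraries from 0 and points the single libraries. Replicates lie close together while members of 1 host differ, from 8.37 to 72.3 in GAS5 and from 0.320 to 50.3 TPM in SNHG1.

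Relative to the containing row, members were low. Of the 325 members that were above 0 in every library and had a containing row, 320 were below it in all 3 libraries. The median of log2((TPM of the member + 1)/(TPM of the containing row + 1)) was -4.59 ± 0.05. Without the pseudocount, the median member had 1.98% ± 0.192 of the TPM of its containing row and 2.24% ± 0.130 of its coverage. The median was 0.455% ± 0.0270 of TPM in ribosomal protein genes (n = 59), 8.46% ± 0.243 in SNHG-type and related genes (n = 90) and 1.38% ± 0.0692 in others (n = 176). The median containing row was at 1437, 75.9 and 90.3 TPM in these groups, and the median member at 6.54, 5.07 and 1.20 TPM, so the ribosomal protein group was lowest relative to its hosts with the highest hosts. Across the 325 members, the level followed that of the containing row loosely, with Pearson's r of 0.491, 0.485 and 0.479 and Spearman's rho of 0.498, 0.491 and 0.501 on log2(TPM + 1) in replicates 1, 2 and 3. Members of 1 host share its value, and all points share the library.

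**Figure D3:**
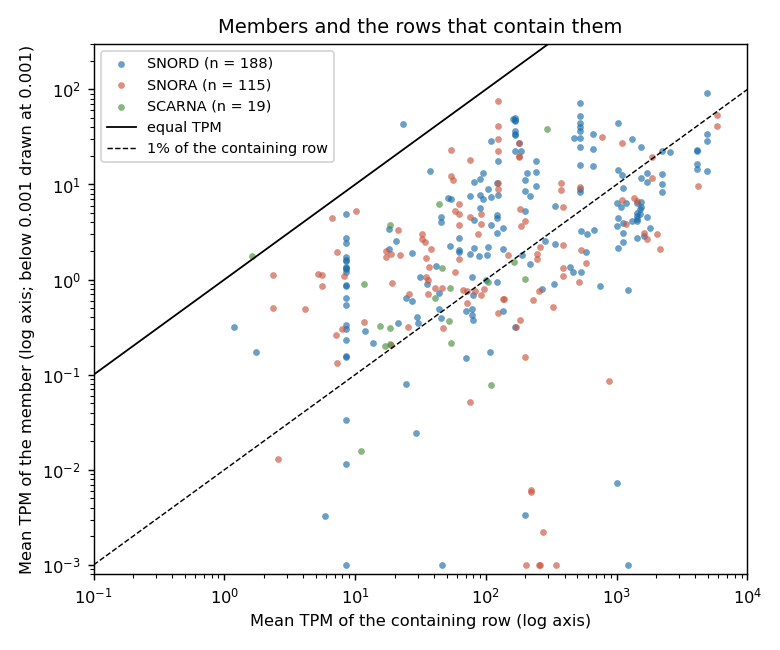
Mean TPM of each member above 0 in every library against that of its containing row where that was above 0, both on log axes, with lines at equal TPM and at 1%; means below 0.001 are drawn at 0.001. Nearly all points lie below equal TPM, and the vertical column at 8.50 TPM holds the members of SNHG14.

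Among the 74 members that averaged 10 TPM or more inside a containing row above 0, the lowest shares given here were in ribosomal protein genes. SNORD24 in RPL7A had 0.283% ± 0.0439 of its row's TPM, with 13.9 ± 1.53 against 4921 ± 280.3 TPM. In RPL13A, SNORD34, SNORD33 and SNORD32A had 0.359%, 0.400% and 0.541%. SNORD36A, also in RPL7A, had 1.86% of it, so 2 members of this host differed by more than their spread. The highest shares were SNORD104 in SNHG25 (189.6% ± 11.4), SNORA40 (60.2% ± 6.23), SNORA73A (42.7% ± 4.58), SNORD17 in SNX5 (36.6% ± 5.68) and SNORA8 (33.5% ± 2.19). SNORD104 lies in an intron and was above SNHG25 in every library, with SNHG25 at 15.5, 26.8 and 26.8 TPM. Both were lower in replicate 1 than in the other replicates.

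Other members above the mean of their containing row were SCARNA17, and SNORD107, SNORD64 and SNORD108 beside SNRPN, whose containing rows PWARSN and PWAR5 were listed at 0. The longer row SNHG14 also spans SNORD107, SNORD64 and SNORD108, at a mean of 8.50 TPM. Against it, SNORD64 (2.64) and SNORD108 (8.06 TPM) had lower means, and SNORD107 was higher in replicate 3 only. SCARNA17 lies in SNHG22, which had 2.62, 0 and 2.25 TPM, so its position above or below differed between libraries.

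Position within the host was taken from the exons of GENCODE v44 on the same strand, leaving out transcripts of small RNA genes. Of the 568 rows, 21 lay wholly inside an exon of an Ensembl canonical transcript, 173 inside an exon of another transcript only, 44 partly in an exon, 283 in introns only and 47 outside. An exon of another transcript that spans a snoRNA can be an annotated form that keeps the intron. At least 1 TPM in every library was reached by 122 of 173 rows in such exons (70.5%) and by 61 of 283 in introns only (21.6%). In canonical exons it was 8 of 21 (38.1%), near the 33.8% of all rows of the tables. Among rows whose containing row had a mean of at least 10 TPM, these shares were 113 of 133 (85.0%), 61 of 156 (39.1%) and 2 of 7 (28.6%). It was 18 of 25 for rows partly in an exon. The canonical exons thus lay below the introns in this subset, where they held only 7 rows, and above them over all 568 rows. Of the 71 rows with at least 10 TPM in every library, 62 lay inside an exon, 3 of them in a canonical one, and 4 in introns only. The part of intron-keeping transcripts in these levels was not tested. SNORD47, SNORD36A, SNORA40, SNORA10 and SCARNA12 all lay in exons of another transcript only, and SNORD104 and SNORD6 in introns.

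**Figure D4:**
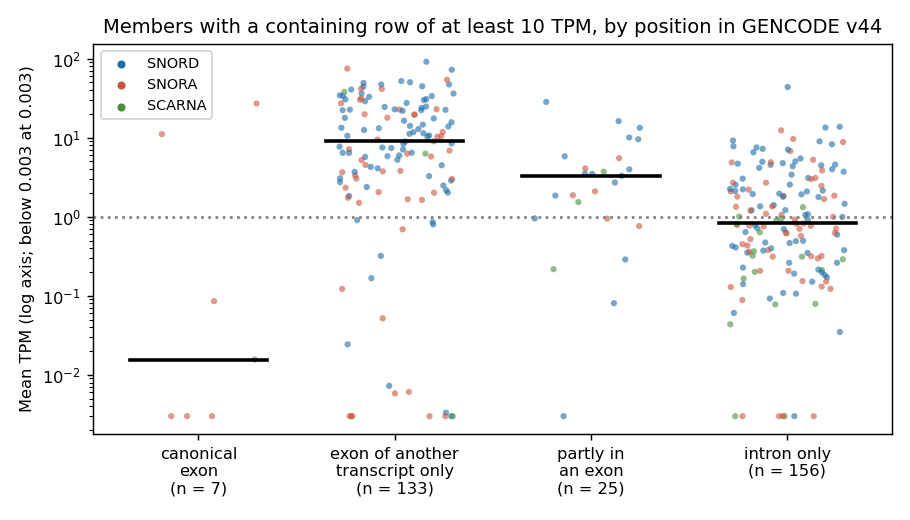
Mean TPM on a log axis of members whose containing row had at least 10 TPM, by position in GENCODE v44, coloured by class; bars are medians, the dotted line is 1 TPM and means below 0.003 are drawn at 0.003. The median was 8.96 TPM inside exons of other transcripts (n = 133) and 0.822 in introns only (n = 156), with wide overlap. It was 3.30 for rows partly in an exon (n = 25) and 0.0156 TPM in canonical exons (n = 7).

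Being inside a highly expressed row did not go with a high value in every case. Of the 322 members inside a row averaging 10 TPM or more, 140 of them inside an exon, 21 were below 0.01 TPM in all 3 libraries and 10 of these were listed at 0. Of these 21, 12 were inside an exon, 3 of them in a canonical one, 1 partly in an exon, 7 in introns only and 1 outside. They were chosen after their values were seen. SNORD73A had 0.00076, 0.000255 and 0.000275 TPM inside RPS3A, a ribosomal protein gene at 1222 TPM on average. SNORA7A was listed at 0 inside RPL32 at 628 TPM, and SNORA81 was listed at 0 inside EIF4A2 at 179 TPM, where SNORA63 had 27.2 TPM. The genes of the snoRNA machinery held some of them. SNORD86 had 0.00323, 0.00309 and 0.00366 TPM inside NOP56, a core protein of box C/D particles, at 200.5 TPM. SNORA56 and SNORA36A, inside the pseudouridine synthase gene DKC1 at 203 TPM, had a mean of 0.000115 TPM and 0. In canonical exons lay SNORA100 in HNRNPU, SNORA86 in ITGB1 and SNORA31B in TPT1, with means from 4.2e-05 to 0.00223 TPM. All 12 in exons share their bases with a longer annotated transcript, and how reads were assigned between overlapping rows is not given in the sources used here.

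The deposited coverage multiplied by the length of the row gives the bases counted in it. This product was a whole number, within 0.05 and products that near 0 included, in 336 of 382 rows above 0 in replicate 1 (88.0%), 325 of 380 in replicate 2 (85.5%) and 320 of 372 in replicate 3 (86.0%). The values that were not whole included those of SNORD86 and SNORD73A, and that of SNORD107 in replicate 3, described below. Of the 568 rows, 493 were whole or at 0 in every library, and 189 of these had at least 1 TPM in every library.

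Spread between replicates was examined in members with a mean of at least 1 TPM. In the 78 members with a mean of at least 10 TPM, the median coefficient of variation was 8.70%, against 4.88% in all rows of that level. In the 153 members with a mean of 1 to 10 TPM it was 18.8%, against 9.16% in all rows of that level. The median range of log2(TPM + 1) over 3 libraries was 0.23 in the 78 members, against 0.13 in all rows with a mean of at least 10 TPM. A range above 1 was found in 1 of 78 members (1.28%) and in 0.273% of the 8419 rows of that level. With a minimum mean of 1 TPM it was 4 of 231 members (1.73%), close to 173 of the 13753 rows of that level (1.26%). The other members were SNORA26 in DANCR (4.99, 2.84 and 1.16 TPM), SNORD117 in DDX39B (0.544, 1.26 and 2.57 TPM) and SNORA112 in STARD7-AS1 (0.381, 1.90 and 1.16 TPM).

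The member with a range above 1 was SNORD107 (chr15:24981994-24982068, plus strand), an imprinted box C/D snoRNA between SNRPN and the SNORD116 copies. It had 8e-06 and 6e-06 TPM in replicates 1 and 2 and 36.7 TPM in replicate 3, a range of 5.24 on the log2 scale. Without replicate 3 no member had a range above 1. Neighbouring rows changed in the same library, with SNRPN at 17.6, 19.1 and 8.32 TPM and SNURF, which shares its end with SNRPN, at 0.584, 0.862 and 12.04 TPM. SNHG14, which spans all of them, hardly differed (8.71, 8.50 and 8.29 TPM). SNORD64 had 2.81, 3.12 and 2.00 TPM and SNORD108 had 6.36, 8.30 and 9.51 TPM, and both were present in every library. SNORD107 lies inside exons of SNHG14 and of another gene that GENCODE v44 lists by an identifier alone. The part of the overlapping rows in the value of replicate 3 was not tested.

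**Figure D5:**
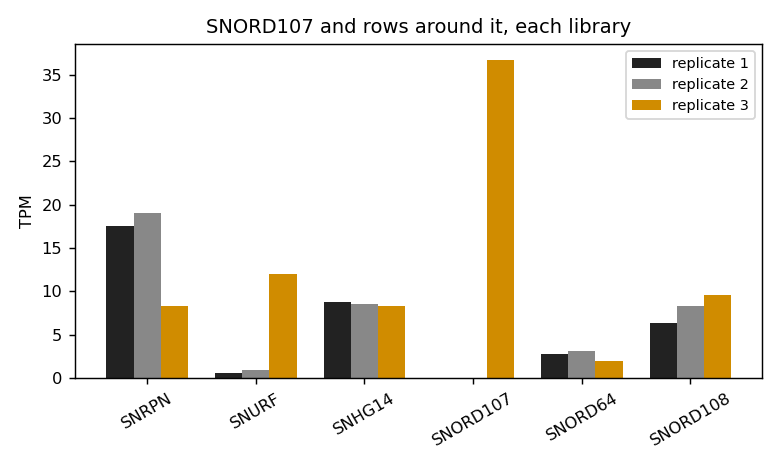
TPM of SNORD107 and rows around it on chromosome 15 in each library, as bars from 0. SNORD107 is seen in replicate 3 alone at 36.7 TPM, where SNURF is higher and SNRPN lower than in the other libraries, while SNHG14 is level.

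On the other strand, 23 members lay inside a longer row without one on their own strand, and 3 of these had at least 1 TPM in every library. SNORA104 had 26.6, 21.6 and 24.0 TPM opposite ADGRE3, an adhesion receptor gene listed at 0. SNORA105A had 15.1, 11.1 and 11.2 TPM opposite the cadherin gene CDH12, which had 0.320, 0.253 and 0.302 TPM. SNORA11F had 7.97, 6.57 and 6.00 TPM opposite NUDT13, at 4.91, 4.46 and 4.44 TPM. All were above the row that spans them on the other strand, and the strand setting of the counting is not given in the sources used here.

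The protein genes of snoRNA particles all reached 1 TPM in each library. Of the box C/D core, FBL (fibrillarin, the methyltransferase) had 335 ± 20.3, NOP56 200.5 ± 8.09, SNU13 158 ± 2.15 and NOP58 135 ± 3.36 TPM, so 4 of 4 reached 10 TPM in each, as did 20.7% of all rows. Of the H/ACA core, NHP2 had 233 ± 2.58, NOP10 209 ± 4.66, DKC1 203 ± 5.93 and GAR1 87.9 ± 6.28 TPM, also 4 of 4. Assembly factors reached 10 TPM in 9 of 10 genes, from NUFIP1 at 6.26 ± 0.836 to NOLC1 at 225 ± 8.74 TPM. Cajal body and snoRNA processing factors reached it in 10 of 10, from XRN1 at 11.7 ± 0.895 to SMN1 at 82.3 ± 1.80 TPM. The SMN1 row has a near-identical copy, SMN2, so its value is uncertain. COIL, the scaffold of Cajal bodies, had 19.7 ± 1.20 TPM, and DBR1, which opens intron lariats, had 33.1 ± 0.606 TPM. NOP56, NOP58 and DKC1 are themselves hosts of 5, 4 and 2 members. Of 36 SNHG-type and related host genes listed, 35 had a row, 29 had at least 1 TPM and 23 at least 10 TPM in every library, 1 was listed at 0, and 31 held at least 1 member. The highest was SNHG29 at 654 ± 12.4 TPM.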

How the data were processed

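The 3 replicate libraries of WT HepG2 polyA RNA form 1 condition. According to the submitters' processing notes and the study's methods, 150 bp paired-end reads were filtered with FastQC 0.11.8 and Trim Galore 0.6.2, mapped to GRCh38 with STAR 2.6.1a and quantified with StringTie. The annotation and strand setting are not given in the sources used here. The coverage values deposited by the authors are mean read depth, not scaled for library size. FPKM as deposited is corrected for length and library size, and TPM as deposited by the authors has the same sum in each library. The depth per sample is unknown.

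Rows were joined by name, strand and coordinates, which left 43389 rows, 39320 of them on references with no "_" in the name. TPM was used as deposited, with a pseudocount of 1 on the log2 scale and limits of 1 and 10 TPM. No test was run, and errors are SDs over 3 libraries. Exons were taken from GENCODE v44, whose snoRNA genes matched 232 rows by name and coordinates and 146 more within 2 bases, and sequences from GRCh38. The range calculation was tested on simulated data.

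Named were the 10 highest SNORD and SNORA rows, the 5 highest SCARNA rows, rows with known roles in rRNA processing, imprinted clusters or Cajal bodies, the 5 containing rows with most members, the 5 highest and 5 lowest relative to their containing row, rows with a log2 range above 1, and lists of particle proteins, assembly, Cajal body and host genes and liver markers. Host genes listed under a name that the tables do not use were matched through RefSeq synonyms. Rows on the other strand and those low inside high rows were added after their values were seen. A row that this rule names is not reported here. The members and lists were chosen with earlier results of these data known. Alternatives were leaving out each replicate, other limits, pseudocounts, units, scalings and containing rows. The calculations used Python 3.11.15, pandas 2.3.3, numpy 2.4.6 and matplotlib 3.10.9.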

Additional observations from a re-analysis of the deposited data

How the results depend on the processing

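Leaving out each replicate gave 352 to 360 rows above 0 and 216 to 221 with at least 1 TPM in every library, a median log2 ratio to the containing row of -4.59 to -4.54, a share of TPM of 0.270% to 0.276% and a SNORA minus SNORD difference of -0.72 to -0.63. The count of rows with a range above 1 was 0 to 1, and 0 without replicate 3. A limit of 10 TPM left 71 of the 214 rows, while the other limits, units and scalings gave 159 to 308. The median log2 ratio was -5.12 by coverage, -5.46 with a pseudocount of 0.1, -3.54 over all 513 members with a containing row, -4.50 with the longest containing row and -0.68 with a row on the other strand (n = 18). The share of the rows was 0.437% of coverage, and 0.341% of TPM without mitochondrially encoded rows. With a minimum mean of 1 TPM, 4 of 231 members (1.73%) had a range above 1, against 1.26% of all rows of that level. The SNORA minus SNORD difference was -0.89 by coverage and -0.91 with a pseudocount of 0.1, and it reversed to 0.31 over all rows of each class, where the rows at 0 enter. The causes of the other shifts were not tested. Alternatives chosen after seeing the data were rows with whole bases only (189 rows with at least 1 TPM) and members in introns only (median log2 ratio -4.61).

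No paired analysis was possible because there is only 1 group of libraries. Without counts, zeros could not be given an upper limit, and 3 libraries of 1 label give no comparison between conditions.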
